A study of Saccharomyces cerevisiae with 18 samples.

Results

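The mitochondrial ribosomal protein genes of budding yeast (Saccharomyces cerevisiae) were taken as the nuclear coding genes whose standard symbol is MRPL, MRPS, MRP or RSM followed directly by a number, without MRP8. The rule found 66 genes among 7126 RNA features, 5991 of which were nuclear coding genes, and it used no measured value. The mitochondrial ribosome translates the few messages of the mitochondrial genome, most of which encode core subunits of the respiratory chain and the ATP synthase. Its RNA is made inside the organelle, whereas nearly all of its proteins are encoded in the nucleus, translated in the cytosol and imported. Many of these proteins descend from bacterial ribosomal proteins, and others were added during the evolution of mitochondria.

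RNA was measured in 5 libraries. Cells of the genotypes wild type, hmo1Δ, top2-1 and hmo1Δ;top2-1 were grown at 28 °C and held at 37 °C for 60 min, and wild type also gave a library at 28 °C that its labels place in S phase. The chromatin protein Hmo1 belongs to the HMG-box family and is known to occupy ribosomal DNA and many promoters of cytosolic ribosomal proteins, and top2-1 is a temperature-sensitive allele of the gene for topoisomerase II, which loses activity at 37 °C. Chromatin immunoprecipitation (ChIP) located histone H3 in 4 strains kept for 2 h 15 min at 37 °C: wild type or top2-1;top1Δ, carrying either a control plasmid or one for TopA, an Escherichia coli topoisomerase. Tagged Hmo1 was mapped in the same way in a control-plasmid library and in top2-1;top1Δ cells with TopA, and contacts of DNA bound by Top2 were mapped by ChIA-PET (chromatin interaction analysis by paired-end tags) in wild type labelled as log-phase cells at 28 °C, although the growth protocol of that sample describes G1 arrest and 15 min of release, so its cell-cycle state is uncertain. The control-plasmid Hmo1 library has a title that names top2-1 and top1 but a genotype label that names only the tag, so a difference between both Hmo1 libraries cannot be assigned to TopA or to the topoisomerase mutations.

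Every group held 1 library. No replicate error and no p-value can therefore be given, and "higher" and "lower" below compare libraries. Ratios are given on the log2 scale after TMM scaling of the counts with a prior count of 2, and levels as CPM, counts relative to the TMM-scaled library total, or as TPM, which is also corrected for length. Intervals are exact 95% binomial intervals of the 2 counts of a gene and cover counting error only. A feature is counted as higher or lower at a size of at least 1.5-fold, a rule of size and not a test, and smaller ratios are given as above or below 0. In these bulk libraries, a change in RNA per cell and a change in the share of cells with that RNA cannot be told apart.

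Total counts ran from 4752497 in wild type at 37 °C to 14770310 in wild type at 28 °C. HMO1 had 0 counts in hmo1Δ and in the double mutant, against 1152 in wild type at 37 °C and 1327 in top2-1, at least 481-fold and 685-fold lower at a floor of 3 counts per library. TRP1, a tryptophan synthesis gene often used as a selection marker, also had 0 counts in both hmo1Δ strains and 152 in wild type at 37 °C, so those strains differ from the others at that locus too. The part of that difference in the results below was not tested. TOP2 RNA was at 158 CPM in wild type at 37 °C and 138 CPM in top2-1; a point mutation need not change it, so it does not check the label. Among the comparisons at 37 °C, scaling moved hmo1Δ over wild type the most: with library totals alone the median of all features was -0.25 in hmo1Δ over wild type, and with TPM -0.31. Directions are given relative to the median feature. The share of all features at least 1.5-fold lower in hmo1Δ was 14.7% and the share higher 16.6%, which became 26.7% and 9.76% with totals alone.

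The 66 genes lay on 14 chromosomes, and 38 encode proteins of the large subunit and 28 of the small subunit. By the family names in the RefSeq table, 41 belong to families shared with bacteria and 25 to families specific to mitochondrial ribosomes. For RSM22, a methyltransferase-like protein of the small subunit, the table gives no family name, and it was counted with the mitochondrial families. All 66 genes passed the minimum mean of 20 counts, and their median count was 349 to 619 per library. The genes were short, with a median coding length of 706.5 bp (213 to 1887 bp), against 1263 bp for all 5600 nuclear coding genes tested.

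Within a library, the highest and lowest members differed by 13.4-fold (top2-1) to 26.0-fold (wild type at 28 °C) in TPM. In wild type at 37 °C the median member was at 108 TPM, at the 72.9th percentile of nuclear coding genes. MRPL37 (mL54) was highest in wild type at 37 °C with 419 TPM, followed by MRPS12 (uS12m), whose bacterial relative lies at the decoding site, with 396 TPM. MRPS16 (bS16m) had 318 TPM, RSM19 (uS19m) 238 TPM and MRPL50 (bL9m) 217 TPM. The lowest was MRPL32 (bL32m), which is matured by the m-AAA protease after import, at 27.5 TPM. RSM22 was at 29.6 TPM, MRPL24 (bL28m) at 50.0 TPM, RSM23 (mS29, a GTP-binding protein) at 57.3 TPM and MRPL35 (mL38) at 66.1 TPM. In wild type at 37 °C the extremes differed by 15.2-fold in TPM, while the upper and lower quartiles differed by 1.63-fold.

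**Figure D1:**
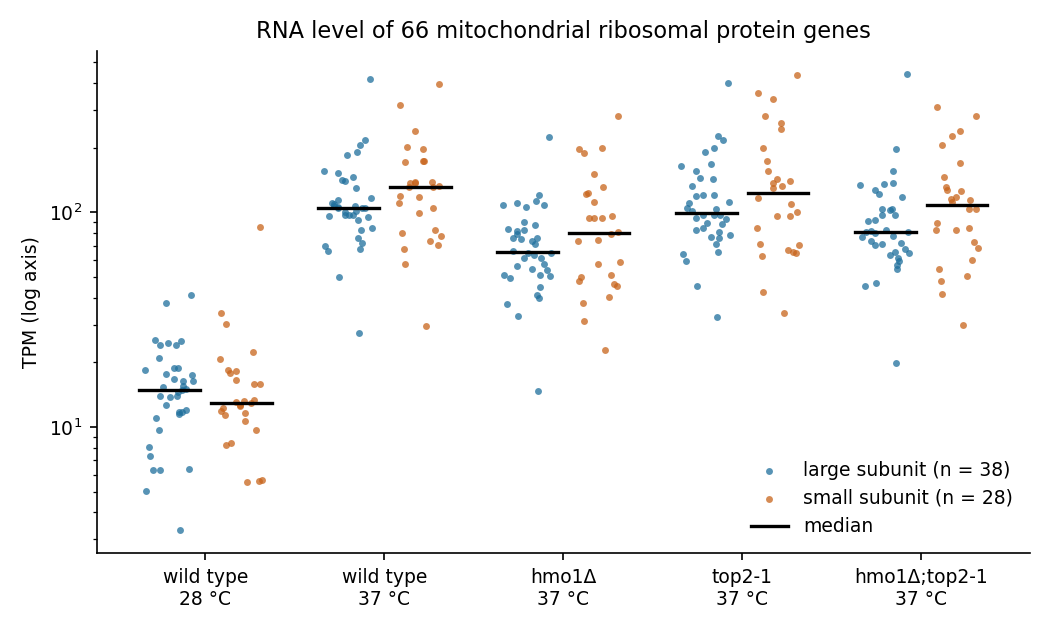
TPM of the 66 genes in each of the 5 RNA libraries (vertical log axis), with large-subunit genes in blue and small-subunit genes in orange and a black line at each median. The median over all members was 108 in wild type at 37 °C, 73.3 in hmo1Δ, 104 in top2-1, 87.1 in the double mutant and 13.9 in wild type at 28 °C, and in each subunit the median was highest in wild type at 37 °C and lowest at 28 °C. Nuclear coding genes tested had medians of 52.9, 41.9, 52.8, 47.7 and 12.8 TPM in the same order, so TPM differed between these libraries for genes in general too.

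The members' share of all counts was 0.52% in wild type at 37 °C, 0.36% in hmo1Δ, 0.54% in top2-1, 0.47% in the double mutant and 0.16% in wild type at 28 °C. Nuclear coding genes tested held 98.0%, 98.1%, 98.0%, 97.8% and 77.6% of counts in the same order. The order of the genes by TPM differed little among the libraries at 37 °C. The rank correlation over the 66 genes was 0.95 between wild type and top2-1 and 0.88 between wild type and hmo1Δ, against 0.65 between wild type at 28 °C and 37 °C. These genes share libraries and lengths and are not independent, so the values are descriptions.

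In hmo1Δ at 37 °C most mitochondrial ribosomal protein genes had RNA ratios to wild type below 0, mostly by less than 1.5-fold with the TMM scaling. The median log2 ratio of hmo1Δ over wild type was -0.34 over the 66 genes, with quartiles at -0.52 and -0.16, against 0.00 over all 6085 features tested. Of the members, 59 of 66 were below 0, where 49.9% of all features were. At least 1.5-fold lower were 7 members, where 14.7% of all features were, and 0 were at least 1.5-fold higher, where 16.6% were. This count depended on the scaling. With library totals 34 members were lower, where 26.7% of all features were, and with TPM 41 were, where 29.1% were, so the members' share (7 of 66 with TMM) was below that of all features with TMM and above it with both others. The members' median was -0.59 with totals and -0.67 with TPM, past 1.5-fold. With TMM the SD among members was 0.27, against 0.77 among all features, and 0 members reached 2-fold, where 5.19% of all features were lower and 7.13% higher by that size. For 43 members the counting interval lay below 0 (32.6% of all features), and for 3 above 0 (32.8%). Nuclear coding genes with a length between the members' quartiles had a median of 0.03.

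The lowest gene, MRP2 (uS14m, YPR166C, R64 chromosome XVI 876282-876629, minus strand), encodes a small-subunit protein of a family that sits in the head of the bacterial small subunit. It was at 13.0 CPM in wild type at 28 °C, 28.0 in wild type at 37 °C, 14.5 in hmo1Δ, 28.5 in top2-1 and 25.1 in the double mutant, and its ratio of hmo1Δ over wild type was -0.93 (-1.32 to -0.58). Among the 4 libraries at 37 °C the hmo1Δ library stood alone at the low end. MRPL13 (mL50, chromosome XI 450423-451217), a large-subunit protein specific to mitochondria, had 53.0, 86.1, 46.4, 84.0 and 67.7 CPM in the same order, a ratio of -0.89 (-1.10 to -0.69). Here hmo1Δ was the lowest of all 5, and the double mutant lay between hmo1Δ and the 2 strains with Hmo1.

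MRP35 (bL35m) went from 26.0 CPM in wild type at 37 °C to 14.9 in hmo1Δ, with 26.8 in top2-1 and 25.6 in the double mutant, a ratio of -0.79 (-1.18 to -0.43). RSM25 (mS23) had 77.0, 46.8, 72.6 and 70.4 CPM in these libraries, a ratio of -0.71 (-0.93 to -0.51). For MRP2, MRP35 and RSM25 alike, the double mutant lay close to the strains with Hmo1 and far from hmo1Δ. MRPL15 (mL57), a protein with an RNase III-like fold that pairs with the product of MRPL3 in the large subunit, had 80.2, 49.0, 67.4 and 55.8 CPM, a ratio of -0.71 (-0.92 to -0.51). MRPL50 (bL9m, chromosome XIV 669774-670193) had 68.6, 43.1, 70.5 and 43.6 CPM, a ratio of -0.67 (-0.89 to -0.45). Its 2 libraries without Hmo1 were nearly equal, and both were well below the 2 with Hmo1. MRPL27 (mL41), with 49.6, 31.5, 58.8 and 40.6 CPM, was the last past 1.5-fold, at -0.65 (-0.92 to -0.40). Just short of that size came MRPL32 at -0.57, RSM23 at -0.57 and MRPL17 (mL46) at -0.56.

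The high end was held by small-subunit proteins of bacterial families. RSM7 (uS7m, chromosome X 638232-638975), a relative of the bacterial protein that organises the head of the small subunit, had 84.7 CPM in wild type at 28 °C, 117 in wild type at 37 °C, 161 in hmo1Δ, 139 in top2-1 and 159 in the double mutant. Wild type was the lowest at 37 °C, and the ratio of hmo1Δ over wild type was 0.46 (0.32 to 0.61). RSM18 (bS18m) was at 0.34 (0.15 to 0.54) and RSM10 (uS10m) at 0.23 (0.05 to 0.42). MRP49 (mL61, 0.13) and MRPL6 (uL6m, 0.05) had intervals that held 0. With library totals RSM10 was at -0.02, MRP49 at -0.12 and MRPL6 at -0.20, below 0 but above the median feature of that scaling, and RSM7 and RSM18 stayed above 0.

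**Figure D2:**
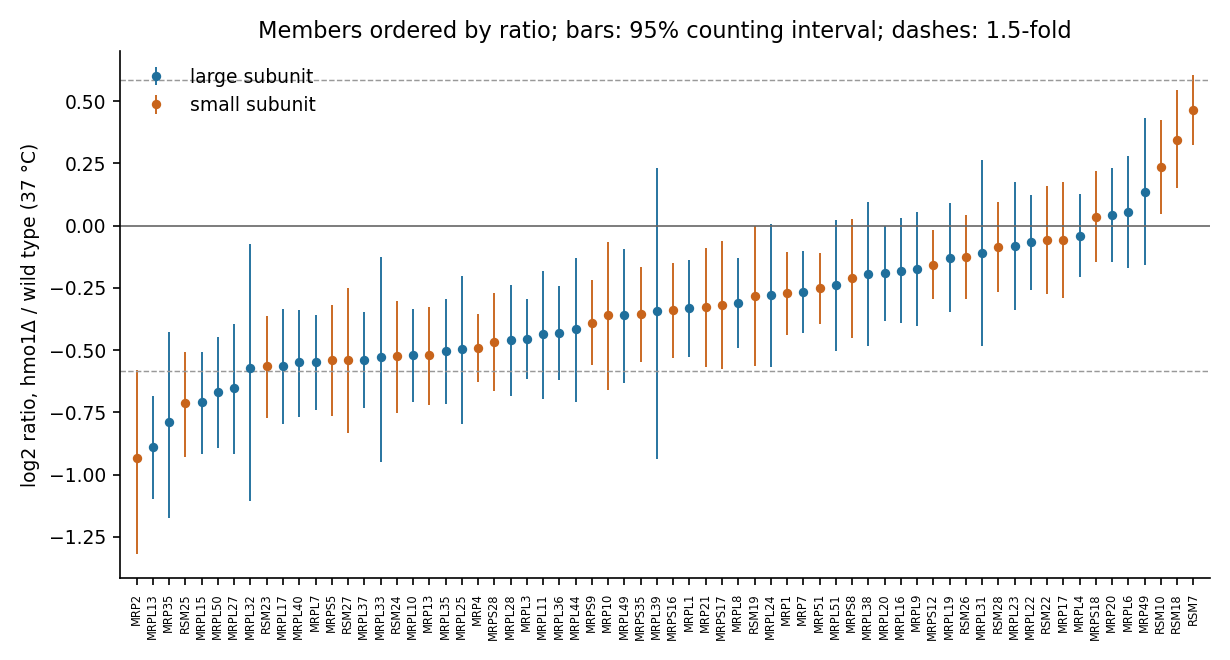
Log2 ratio of hmo1Δ over wild type at 37 °C for each of the 66 genes, ordered by value (vertical axis, log2), with bars for the 95% counting interval, colours for the subunit and dashed lines at 1.5-fold. The values run from -0.93 (MRP2) to 0.46 (RSM7), 59 of 66 lie below 0, and both subunits are mixed along the order except that the 3 highest are small-subunit genes.

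Both subunits were shifted. The median was -0.39 over the 38 large-subunit genes, of which 35 were below 0, and -0.32 over the 28 small-subunit genes, of which 24 were below 0. Families specific to mitochondria had a median of -0.46, with 24 of 25 genes below 0, and families shared with bacteria -0.31, with 35 of 41 below 0. These medians differ by less than the spread within each class, whose SD was 0.24 to 0.31. Across members the ratio was nearly unrelated to coding length (rank correlation -0.02) and to the TPM in wild type (0.06).

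Other nuclear genes for mitochondrial gene expression were described by lists. The 12 subunits of the same ribosome whose symbols lie outside the naming rule had a median of -0.18, with 8 below 0. They ran from NAM9 (uS4m), at 87.2 CPM in wild type and 50.4 in hmo1Δ (-0.79, -0.99 to -0.59), and MNP1 (-0.32) to RTC6 (0.13) and IMG2 (mL49, 0.17, -0.14 to 0.47). The 8 mitochondrial translation factors had a median of -0.34, from MRF1 (a release factor, -0.57) and FMT1 (which formylates the initiator tRNA, -0.48) to MEF2 (0.05) and TUF1 (elongation factor Tu, 0.24). The 14 mitochondrial tRNA synthetases had a median of -0.20, with ISM1 (isoleucine, -0.81) and MSW1 (tryptophan, -0.75) lowest and AIM10 (0.06) and DIA4 (0.24) highest. Genes that transcribe, maintain or degrade RNA of the mitochondrial genome (8 genes) stood at -0.40. Among them SUV3 (the helicase of the mitochondrial RNA degradosome, -0.88) and MSS116 (a DEAD-box helicase, -0.71) were lowest and RPO41 (the mitochondrial RNA polymerase, -0.04) and PET127 (0.22) highest.

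Lists that did not share the shift were the 7 assembly factors, with a median of 0.05, and the 15 translational activators, with 0.04. Assembly factors ran from MRH4 (a DEAD-box protein of large-subunit assembly, -0.77) and MAM33 (-0.58) to MRM1 (0.23) and MRM2 (both methyltransferases of mitochondrial ribosomal RNA, 0.48). Activators ran from PET122 (-0.64), which acts on COX3 messages, and CBP1 (-0.30) to ATP22 (0.69) and PET494 (0.73). The 33 nuclear subunits of the respiratory chain and ATP synthase were mostly above 0. Their median was 0.51, 2 of 33 were below 0, and 12 were at least 1.5-fold higher, where 16.6% of all features were, from ATP18 (-0.16) and ATP7 (-0.12) to COX6 (0.99) and SDH2 (1.23). The 138 cytosolic ribosomal proteins had a median of 0.18 and a wider spread (SD 0.60), from RPL31B (-2.05) and RPS0A (-1.33) to RPS21A (1.32) and RPS14B (1.41). Many cytosolic ribosomal proteins have near-identical paralogs between which reads may be split.

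**Figure D3:**
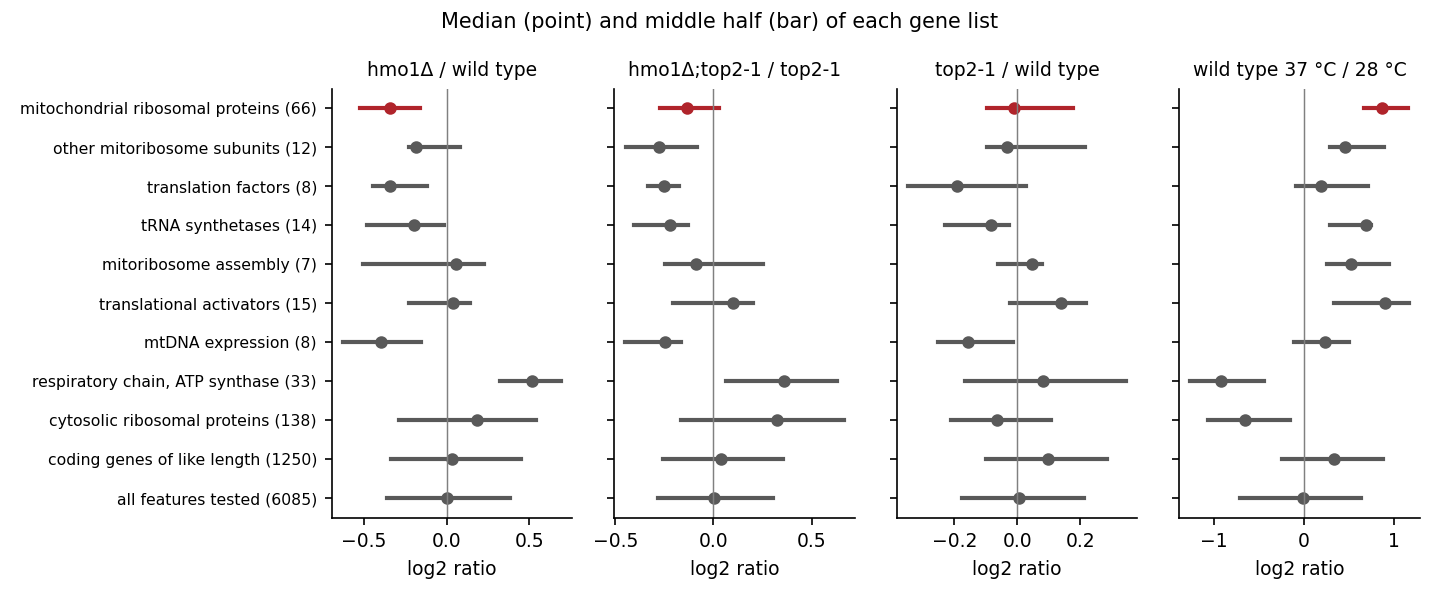
Median (point) and quartile range (bar) of log2 ratios for the mitochondrial ribosomal protein genes (red) and other lists (grey, number of genes in parentheses) in 4 comparisons; the horizontal scale differs between panels. In hmo1Δ over wild type the members were at -0.34 and respiratory chain genes at 0.51, and in wild type at 37 °C over 28 °C they were at 0.86 and -0.92.

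In the top2-1 background, the members' median for loss of Hmo1 had the same sign and was nearer to 0. The median of hmo1Δ;top2-1 over top2-1 was -0.14, against 0.00 over all features, with 45 of 66 members below 0, where 49.0% of all features were. At least 1.5-fold lower were 2 members, where 10.2% of all features were, and 0 were higher, where 11.5% were. The interval lay below 0 for 23 members (34.8%, against 31.2% of all features) and above 0 for 8 (12.1%, against 32.7%). The share with an interval below 0 was thus near that of all features, and the share with an interval above 0 was smaller. At 2-fold 0 members were lower or higher, where 3.75% and 3.76% of all features were. Related lists had lower medians: the other 12 subunits of this ribosome -0.28, translation factors -0.25, expression of the mitochondrial genome -0.25 and tRNA synthetases -0.22. Assembly factors were at -0.09, translational activators at 0.10, cytosolic ribosomal proteins at 0.32 and the respiratory chain list at 0.36.

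MRP10 (mS37), a small-subunit protein with twin CX9C motifs, had the lowest value, -0.71 (-0.94 to -0.48). It was at 34.1 CPM in wild type at 37 °C, 26.5 in hmo1Δ, 49.1 in top2-1 and 30.0 in the double mutant, so the top2-1 library stood above the other 3. MRPL50 followed at -0.69 (-0.88 to -0.50), MRPL3 (mL44), the RNase III-like partner of MRPL15, at -0.58 (-0.73 to -0.44) and MRPL32 at -0.54. At the high end were MRPL31 (mL60, 0.43), MRPL37 (0.36), MRPL51 (mL43, 0.36) and MRPS17 (uS17m, 0.31).

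Both comparisons of loss of Hmo1 use separate libraries and can be set side by side. Below 0 in both were 42 of 66 members, where 36.0% of all features were, and above 0 in both were 4 members (MRP20, MRPL6, RSM7 and RSM18), where 36.3% were; with library totals MRP20 was at -0.21 and MRPL6 at -0.20 in hmo1Δ over wild type. Of the members only MRPL50 was at least 1.5-fold lower in both, where 6.33% of all features were. The ratios of the 2 comparisons had a Pearson correlation of 0.34 and a rank correlation of 0.36 over the 66 genes, and 0.66 and 0.62 over all 6085 features, a description over genes that share length and depth. The direction of the group was thus seen in both backgrounds, while the order of its genes was weakly shared. The members' ratios had SDs of 0.27 and 0.25, against 0.77 and 0.63 over all features. A narrow spread beside counting error lowers a correlation, so the members' values cannot be set directly against those of all features.

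**Figure D4:**
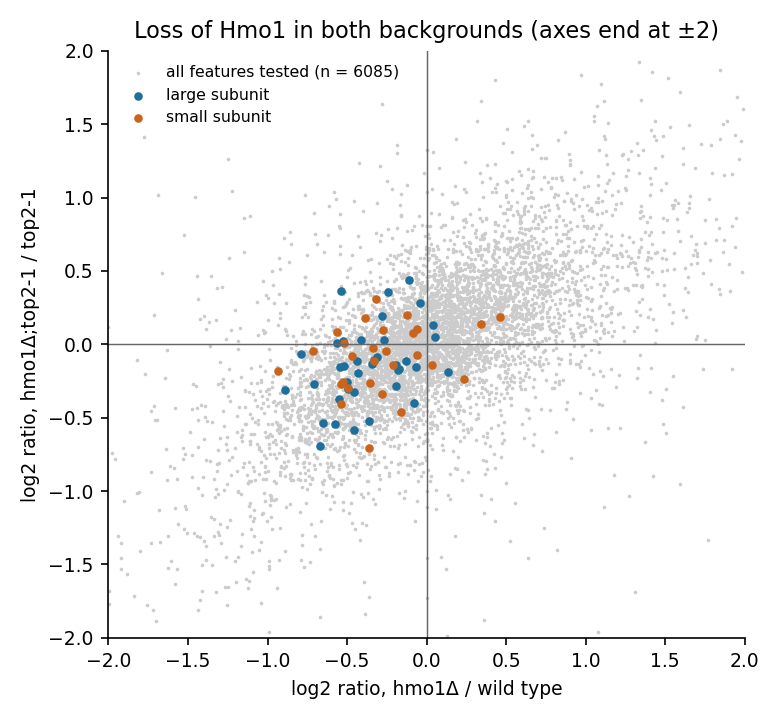
Log2 ratio of hmo1Δ over wild type (horizontal) against hmo1Δ;top2-1 over top2-1 (vertical), with all 6085 features in grey and the members in blue (large subunit) and orange (small subunit); 166 features lie outside the axes, which end at 2 in either direction. The lower left quadrant holds 42 of the 66 members and the upper right quadrant 4.

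The top2-1 library differed little from wild type in these genes. The median of top2-1 over wild type was -0.01, against 0.00 over all features, with 34 of 66 members below 0, where 49.5% of all features were. One member, RSM27 (mS33), was at least 1.5-fold higher, where 5.88% of all features were, and 0 were lower, where 3.70% were. The interval lay below 0 for 10 members (22.0% of all features) and above 0 for 13 (22.4%). RSM27 had 12.0 CPM in wild type at 28 °C, 38.2 in wild type at 37 °C, 26.2 in hmo1Δ, 58.8 in top2-1 and 44.4 in the double mutant, a ratio of 0.62 (0.38 to 0.87). Both strains with top2-1 were above both strains without it. RSM19 (0.56), MRP10 (0.52) and MRPL39 (bL33m, 0.48, -0.02 to 1.02) came next. The lowest were RSM23 (-0.39), MRPS9 (uS9m, -0.36), MRP1 (mS43, of a superoxide dismutase-like fold, -0.35) and MRP17 (bS6m, -0.34).

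Within this small range, the short genes were high and the long genes low. The rank correlation of ratio and coding length was -0.59 over the 66 members, against -0.28 over 5600 nuclear coding genes, and -0.58 over the members with the length-corrected TPM. The 29 members under 600 bp had a median of 0.15 with 5 below 0, and the 37 longer members a median of -0.08 with 29 below 0; this length was chosen after the values were seen. Nuclear coding genes had medians of 0.15 and -0.02 on the same split, so the median of short members was that of short genes in general. Below 0 were 17.2% of the short and 78.4% of the longer members, against 31.0% and 53.5% of nuclear coding genes. An implied fragment length was taken as the median, over long genes, of length minus the effective length in the files. It was 136.7 bp in wild type at 37 °C, 135.0 bp in top2-1, 131.0 bp in hmo1Δ and 121.4 bp in the double mutant, and 95.2 bp in wild type at 28 °C. The part of fragment length in these ratios was not tested.

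Without Hmo1, most members had a ratio above 0 for top2-1. The median of hmo1Δ;top2-1 over hmo1Δ was 0.19, against 0.00 over all features and 0.09 over coding genes of like length, with 12 of 66 below 0, where 49.0% of all features were. At least 1.5-fold higher were 8 members, where 7.26% of all features were, and 0 were lower, where 7.92% were. At 2-fold the count was 0 in either direction, where 2.48% of all features were lower and 1.73% higher. MRPL37 had 84.9 CPM in wild type at 37 °C, 58.4 in hmo1Δ, 83.4 in top2-1 and 107 in the double mutant, a ratio of 0.88 (0.72 to 1.05) over hmo1Δ. The double mutant exceeded the other 3 libraries at 37 °C, and hmo1Δ was the lowest. MRP2 was at 0.78, MRP35 at 0.77 and RSM27 at 0.76, and MRPL39 (0.69), MRPL33 (uL30m, 0.63), MRPL44 (mL53, 0.61) and RSM25 (0.59) were the others. MRP2, MRP35 and RSM25 were also among the lowest in hmo1Δ over wild type, and both comparisons share the hmo1Δ library. The lowest were MRPL3 (-0.20), MRP17 (-0.18), MRP49 (-0.17) and MRPL38 (uL14m, -0.17).

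In the double mutant against wild type the median was -0.12, with 47 of 66 below 0, where 47.9% of all features were. Lower by at least 1.5-fold were MRPL50 and MRPL3 (both -0.65), where 10.2% of all features were, and 0 were higher, where 12.7% were. At 2-fold the count was 0 in either direction, where 3.57% and 4.70% of all features were. MRPL15 (-0.52) and MRPL10 (uL15m, -0.45) came next, and RSM18 (0.49), RSM7 (0.44), MRPL31 (0.36) and MRPL39 (0.35) were highest. The departure of the double mutant from the sum of both single changes had a median of 0.21 over members, against 0.00 over all features, with 16 of 66 below 0, where 49.1% of all features were. Its median was 0.18 over cytosolic ribosomal proteins and -0.09 over the other 12 subunits of the mitochondrial ribosome. The departure was at least 1.5-fold in the positive direction for 7 members, where 8.53% of all features were. MRPL37 (0.90), MRP2 (0.75) and MRP35 (0.73) had the highest values and RSM10 (-0.47), MRP10 (-0.35) and MRP49 (-0.32) the lowest. All 4 libraries at 37 °C enter this value, so it repeats the comparisons above and is no separate measurement.

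Between 28 °C and 37 °C in wild type the median difference was larger than between any pair of strains compared at 37 °C. The median of 37 °C over 28 °C was 0.86, against -0.02 over all features, with 3 of 66 below 0, where 50.6% of all features were. At least 1.5-fold higher were 51 members, where 26.9% of all features were, and at least 2-fold higher were 26, where 14.5% were. The counting interval lay above 0 for 59 members (39.6% of all features) and below 0 for 1 (42.3%). The small subunit had a median of 1.03 and the large subunit 0.80. The highest were MRP35 (1.88), MRPS8 (uS8m, 1.88), MRP17 (1.83) and MRPL25 (mL59, 1.76). MRPS8 was at 13.7 CPM at 28 °C and 43.8 to 59.6 CPM in the 4 libraries at 37 °C, so all 4 lay above it. The lowest were MRPL39 (-0.41, -0.92 to 0.07), MRPL8 (bL17m, -0.17), MRPL38 (-0.05) and MRPS12 (0.08), the last with 137 CPM at 28 °C and 144 at 37 °C.

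This comparison joins several differences. The 28 °C library is labelled as S-phase cells released from arrest for 15 min, while its growth protocol describes the shift to 37 °C, so temperature and cell cycle cannot be told apart. It also had another RNA makeup: nuclear coding genes took 77.6% of its counts, against 98.0% in wild type at 37 °C, and its implied fragments were shorter. Members under 600 bp had a median of 1.09 and longer ones 0.77, where nuclear coding genes had 0.23 and -0.03. With library totals the median over all features was 0.88, and with TPM 1.90. The members stood above it by 0.88 and 0.96, as they did by 0.88 with the TMM scaling. The respiratory chain list had a median of -0.92 with 31 of 33 below 0, and cytosolic ribosomal proteins -0.65. The other 12 subunits of the mitochondrial ribosome had 0.45 and translational activators 0.90. PUF3 encodes an RNA-binding protein known to bind the messages of many mitochondrial ribosomal proteins and to promote their decay or translation depending on growth conditions. Chosen after its values were seen, it had 169 CPM at 28 °C, 40.3 in wild type at 37 °C, 30.5 in hmo1Δ, 39.4 in top2-1 and 46.2 in the double mutant, and its part in the members' levels was not tested.

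Hmo1 peaks were less common at these promoters than at nuclear coding genes in general in the control-plasmid library. A peak overlapped the 300 bp before the start codon at 15 of 66 members (22.7%), where 41.1% of nuclear coding genes had one, and at 110 of 138 cytosolic ribosomal proteins (79.7%). In the TopA library it did so at 21 members (31.8%), where 36.8% of coding genes had one. Peaks were wide, with medians of 1319 bp and 1326 bp, and at none of the 15 members did the control peak have its centre inside the window, where 5.26% of coding genes had such a peak. In the TopA library 4 members (6.06%) had one, where 4.57% of coding genes did. Both libraries had a peak at 11 members, the control library alone at 4 and the TopA library alone at 10, which makes 25 members with a peak in either. Of the 5600 nuclear coding genes tested for RNA, 1517 had a peak in both, 776 in the control library alone and 562 in the TopA library alone. A peak in either library was present at 2855 of them. Scores are the authors' values on a scale that is not stated.

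MRPL4 (uL29m, at the exit of the peptide tunnel) had the highest score in the control library, 2.19, with a peak of 4912 bp on chromosome XII from 1009998 to 1014909. It shares a divergent promoter region of 312 bp with LSM3. MRPL15 (1.86) had the narrowest of the control peaks, 1402 bp, and MRPL8 (1.78) shares a divergent region of 247 bp with COA3. RSM10 (1.77) lay near one end of a peak of 26594 bp, the widest at a member. MRP4 (uS2m, 1.62), RSM7 (1.59), MRPL13 (1.49), MRPL39 (1.48), MRP1 (1.34), MRPS12 (1.33) and RSM19 (1.33) followed, and the last 2, which are neighbours, share 1 peak. In R64 coordinates 38 of 66 members (57.6%) were divergent from their upstream neighbour, against 51.9% of coding genes.

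Members with and without an Hmo1 peak had overlapping RNA ratios. In hmo1Δ over wild type the 25 members with a peak in either library had a median of -0.28 and the 41 without a peak -0.41. The ranges were -0.89 to 0.46 and -0.93 to 0.13, so the groups overlapped over nearly the whole range. Among all nuclear coding genes those with a peak were at 0.06 and those without at -0.08. The genes with a peak included both ends of the order, MRPL13 and MRPL15 at the low end and RSM7 and RSM10 at the high end, while MRP2, MRP35, RSM25 and MRPL50 had no peak in either library. Cells for RNA and for ChIP were at 37 °C for different times and carried different plasmids and tags.

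Promoters of the members were almost free of called H3 nucleosomes in every library. The mean share of the 300 bp before the start codon that a called nucleosome covered was 0.27% in wild type with control plasmid, 2.28% in top2-1;top1Δ with control plasmid, 1.17% in wild type with TopA and 0.48% in top2-1;top1Δ with TopA. Nuclear coding genes had 2.47%, 5.81%, 3.61% and 3.42%, and coding genes of like length 2.08%, 6.45%, 3.34% and 3.16%. Promoters without any called nucleosome numbered 62, 55, 59 and 64 of 66 in these libraries, where 89.7%, 80.8%, 85.8% and 88.5% of coding genes had none. The members thus lay below the coding genes in all 4 means, but most genes of either kind had 0 cover. The highest single value was at MRPS8, where 64.3% of the window was covered in top2-1;top1Δ with control plasmid and 0 in the other 3 libraries.

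Over the coding region the mean cover of members was 24.0%, 30.9%, 28.7% and 12.4% in the same order. All coding genes had 28.8%, 32.2%, 34.2% and 14.6%. Coding genes of like length had 21.5% and 30.0% in both wild-type libraries (control plasmid, then TopA) and 14.03% in top2-1;top1Δ with TopA, and the members were within 3 points of these values. The library of top2-1;top1Δ with TopA had 10841 called nucleosomes against 21862 to 25035 in the other 3, and the cover there was lower than with control plasmid at 44 of 66 members and at 66.7% of coding genes. The median fuzziness score of nucleosomes in members was 57.3 to 57.5, and in all coding genes 57.4 to 57.6.

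**Figure D5:**
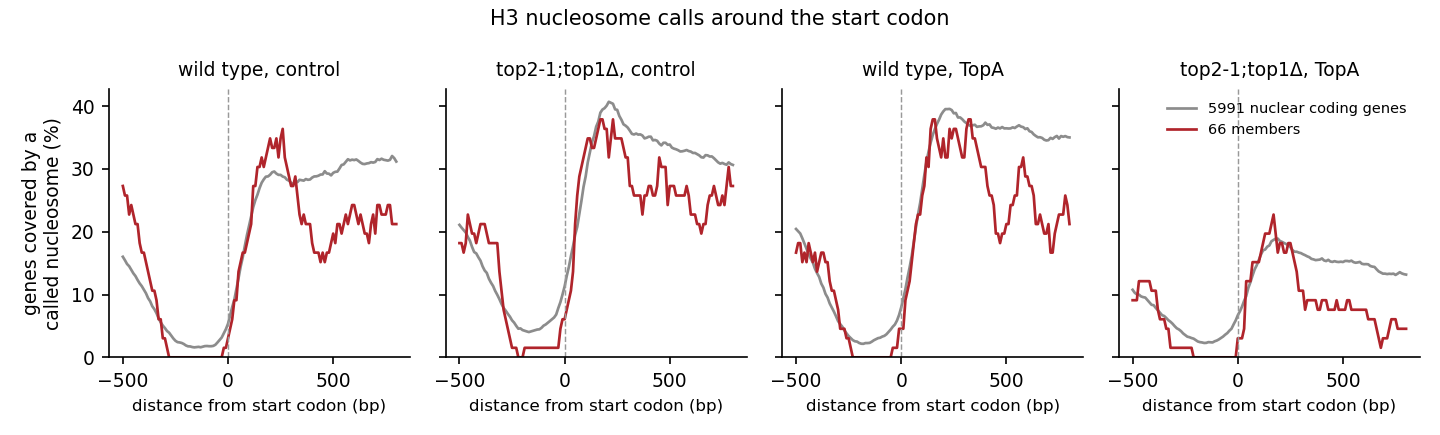
Share of genes covered by a called H3 nucleosome (vertical axis, percent) by distance from the start codon (horizontal axis, bp) in the 4 H3 libraries, for the 66 members (red) and all nuclear coding genes (grey). The members' curve reaches 0% before the start codon in each library and rises to 34.8%, 37.9%, 37.9% and 22.7% within the first 200 bp of the coding region, where all coding genes reach 29.1%, 40.1%, 39.1% and 18.9%.

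The share of these genes with a Top2 contact was near that of coding genes. An anchor of a Top2 pair overlapped the coding region or the 300 bp before it at 25 of 66 members (37.9%), where 40.3% of nuclear coding genes had one, and 31.6% of coding genes of like length. A pair joined both ends of the gene at 2 members, MRP51 (bS1m) and MRPL32, where 4.09% of coding genes had such a pair. Pairs were thinly sampled: 1887 pairs held 2 to 25 tags with a median of 2, and MRPL17, with 4 tags, had the highest count among members. MRP51, MRPL23 (uL13m), MRPL44, MRPS18 (uS11m), MRPS35 (mS45) and RSM18 had pairs of 3 tags. Of the 30 pairs at members, 6 ended in the ribosomal DNA of chromosome XII (451786 to 466869), at MRP2, MRPL3, MRPL4, MRPL35, MRPS35 and RSM18. That was 20% of their pairs, against 17.8% of all pairs, and the repeats of this locus are collapsed in the reference. MRPL4 and MRP1 were among members with both an Hmo1 peak and a Top2 anchor. No build is named for the pairs, which were read as R64.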

How the data were processed

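RNA was measured in 5 libraries, H3 in 4, Hmo1 in 2 and Top2 contacts in 1, each group with 1 library; 6 input samples were not analysed here. The authors deposited RSEM expected counts and TPM per gene, per the file headers, after STAR alignment to R64 per the submitters' processing notes. Strand-specific libraries were made from poly-A RNA after removal of ribosomal RNA, per the labels' protocols. For H3 the deposited lists give nucleosomes with, per the file headers, a summit signal and a score for fuzziness. For Hmo1 they give peaks with a score of unstated scale; the callers are not given in the sources used here. The deposited ChIA-PET file gives a count of tags per pair of anchors.

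Expected counts were rounded and scaled with TMM (edgeR 4.0.16, R 4.3.3), with a prior count of 2; log2 ratios of the 6085 features whose mean count reached 20 were described by a rule of 1.5-fold, since without replicates no test is possible. Intervals are exact Clopper-Pearson at 95%. They were run on simulated counts that held counting error alone, which checks the code and not how the intervals hold in these libraries. Reads amplified by PCR without identifiers do not stand for separate molecules, and intervals and floors hold counting error alone. Of 7126 identifiers, 6086 matched the RefSeq table of R64, which gave names, classes and coordinates (Python 3.11.15, pandas 2.3.3, scipy 1.17.1). Overlap of 1 bp with the 300 bp before a start codon counted for Hmo1, and with that window or the coding region for Top2. Like length means between the quartiles of the members' coding lengths.

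The members and lists were chosen with earlier results of these data known. Genes were named by rank: the 10 lowest and 5 highest in hmo1Δ over wild type, 4 at each end elsewhere, 5 at each end by TPM, 3 by additivity, 2 of each other list, and members with peaks or anchors; others were chosen after their values were seen. Alternatives were other scalings (library totals, DESeq2 1.42.0 size factors, TMM over other sets), TPM with a pseudocount of 1, count filters, a prior count of 0.5, 2-fold, and other windows and subsets for peaks, nucleosomes and pairs.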

Additional observations from a re-analysis of the deposited data

Results flagged for a closer look

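For 4 members the loss of Hmo1 had opposite signs in the 2 backgrounds, each beyond its counting interval. MRPL37 was at -0.54 in hmo1Δ over wild type and 0.36 in hmo1Δ;top2-1 over top2-1. MRPS17 was at -0.32 and 0.31, MRPS9 at -0.39 and 0.18, and RSM10 at 0.23 and -0.24. The signs of RSM10 depended on the scaling. Its TPM was lower without Hmo1 in both backgrounds, at 131 in wild type and 123 in hmo1Δ, and at 173 in top2-1 and 132 in the double mutant. For 4 members the ratio for top2-1 likewise had opposite signs with and without Hmo1. MRP13 was at -0.32 in top2-1 over wild type and 0.22 in hmo1Δ;top2-1 over hmo1Δ, MRPL7 at -0.20 and 0.19, MRPS9 at -0.36 and 0.21, and RSM23 at -0.39 and 0.26. With 1 library per group the differences between backgrounds were not tested. The share of all features with such opposite signs was not counted, so neither count can be set against a background. MRPS9 stood in both sets: its wild-type library, at 104 CPM, was above the other 3 at 37 °C, which held 79.2 (hmo1Δ), 80.6 (top2-1) and 91.5 (double mutant).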

How the results depend on the processing

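Of 189 alternative values of summary results, 163 stayed within 1.5 times the main count or within the spread of the main value, and the other 26 are given here. The members' median minus the all-feature median stayed between -0.37 and -0.33 in hmo1Δ over wild type and between -0.16 and -0.13 in the double mutant over top2-1, while counts past 1.5-fold moved with the scaling. With library totals alone, 34 members were lower in hmo1Δ over wild type (26.7% of all features), 2 higher in top2-1 (6.62%), 6 lower in the double mutant over top2-1 (13.9%) and 16 higher in it over hmo1Δ (14.2%). With TPM the counts were 41 (29.1%), 0 (4.77%), 8 (15.0%) and 14 (11.1%), and 4 were lower in the double mutant over wild type (16.2%). The members' median in top2-1 over wild type, -0.01, was 0.02 with totals. At 2-fold with the TMM scaling 0 members were lower or higher in any comparison at 37 °C, and 26 members were higher at 37 °C than at 28 °C. With Hmo1 peaks of above-median score, 8 (control) and 11 (TopA) members had a peak, against 30.5% and 25.9% of coding genes, and with the peak centre inside the window 0 and 4, against 5.26% and 4.57%. The promoter H3 cover of members minus that of coding genes was -1.14 points in wild type with control plasmid, -1.19 in top2-1;top1Δ with control plasmid, -1.32 in wild type with TopA and -1.14 in top2-1;top1Δ with TopA for nucleosomes of above-median signal. For those of below-median fuzziness it was -1.51, -2.08, -1.43 and -1.56 in the same order, against -2.20, -3.53, -2.45 and -2.93 with all nucleosomes; fewer nucleosomes enter each of these. Over the coding region the latter choice turned the difference from -1.31 to 1.81 points in top2-1;top1Δ with control plasmid and from -2.24 to 0.15 with TopA; the cause was not tested. With pairs of at least 3 tags, chosen after seeing the data because the median tag count was also the lowest, 7 members had a Top2 anchor (10.6%, against 11.2% of coding genes). Of 3090 alternative values of single members, 313 moved, 173 with TPM and 140 with totals. No paired analysis was possible because each group held 1 library, and none could be left out. Depth limits the low genes: MRPL39 had 52 counts in wild type at 37 °C.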
